A study of Mus musculus with 7 samples.

Results

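The cells described here are 428 mouse brain endothelial cells that were picked by 6 genes, Cdh13, Ccn3, Lypd1, Pi16, Emp1 and Gask1b, out of 31753 endothelial cells and 39315 barcodes that passed the filters in 7 single-cell RNA libraries. A barcode was kept with at least 500 genes and at most 15% mitochondrial UMIs (unique molecular identifiers, which count captured mRNA molecules). It was called endothelial with at least 3 of Pecam1, Cdh5, Cldn5, Flt1, Ly6c1, Egfl7, Itm2a and Eng and at most 1 UMI in all of Vtn, Acta2 and C1qa. A member had at least 3 of the 6 genes, at most 1 of the 4 artery genes Fbln5, Cytl1, Eln and Mgp, and at most 2 of the 5 vein genes Vwf, Ackr1, Lrg1, Vcam1 and Tmem252. These are called the gate genes below, and none of them is reported as a result.

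Each library came from microvessels of a single hemisphere, without cerebellum, brain stem and olfactory bulbs, of untreated wild-type C57Bl6 mice, a common inbred strain. Vessels were digested with collagenase and pulled out on magnetic beads by CD31, the surface protein that Pecam1 encodes. There were 3 libraries at 12 months and 4 at 3 months of age. The labels do not say whether a library holds 1 animal or several, so p-values measure the spread between these libraries. No animal in the series carried a deletion or received a treatment, and the age groups also differed in counting software, Cell Ranger 4.0.0 at 12 months and 6.1.1 at 3 months, and in library indexing, single at 12 months and dual at 3 months.

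Brain endothelial cells change along the vessel tree. Arterial cells carry Notch signalling and guidance genes, capillary cells carry most of the transporters of the blood-brain barrier, and venous cells carry leukocyte adhesion and acute-phase genes. Of the gate genes, Cdh13 encodes T-cadherin, a cadherin anchored by a lipid tail, Ccn3 a secreted matricellular protein, Lypd1 a member of the Ly6 family, Emp1 an epithelial membrane protein, and Pi16 a secreted protein of the CAP family.

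The gate found between 19 and 107 members in a library. Most members rested on few detections, since 295 of them had exactly 3 gate genes, 88 had 4, 40 had 5 and 5 had all 6. Just outside the gate stood 893 cells with 2 gate genes and the same exclusions, and 22128 such cells had none. Cdh13 had a UMI in 88.3% of members, Lypd1 in 74.1%, Gask1b in 64.0%, Emp1 in 52.6%, Ccn3 in 45.3% and Pi16 in 18.5%. Ccn3 was thus found in 194 of the 428 members. With all cells thinned to 2000 UMIs, the gate genes were found together in pairs: the share of cells with the second gene was 2.84 to 28.4 times as high in cells with the first as in cells without it. These values chose the members and are given as a description.

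The 8 endothelial genes, of which the gate required 3, summed to 17702 to 20169 CPM (UMIs of a gene scaled to a common total per sum) in members and 17324 to 22480 CPM in other endothelial cells. Markers of T and NK cells were at 0 for all 4 genes. Cnn1 of smooth muscle, Kcnj8 of pericytes, and Gfap and Aqp4 of astrocytes were also at 0, but the other markers of those lists had UMIs. Smooth muscle markers summed to 13.1 to 77.0 CPM in members and 11.01 to 74.9 CPM in other endothelial cells. Those of astrocytes came to 10.02 to 103 CPM in members and 55.2 to 113 CPM in other endothelial cells. The 8 microglia markers all had UMIs, with 33.97 to 160 CPM in members and 44.7 to 256 CPM in other endothelial cells. Summed fibroblast markers came to 0 to 6.25 CPM and summed neuron markers to 0 to 7.94 CPM. Summed pericyte markers came to 47.0 to 257 CPM in members and 45.4 to 178 CPM in the other endothelial cells. Hemoglobin and other erythroid transcripts ranged from 26.1 to 42454 CPM in members and 6710 to 40680 CPM in other endothelial cells, and their part in the results was not tested. Total UMIs per library were 8706961 to 44861008. Of 42882 cell barcodes, 209 occurred in more than 1 library, among them 6 members, and none was a member in more than 1 library. The median member held 1463, 4094 and 2682 UMIs in the respective 12-month libraries and 6663, 10481, 8301 and 6396 UMIs in those of 3 months, above those of the other endothelial cells, whose medians ran from 1015 to 4792.

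The S100 proteins S100a6 and S100a4, the integrin ligand nephronectin (Npnt) and the nucleotide receptor P2ry2 were the genes outside the gate that the later results turn on most. The 250 bases before their RefSeq start sites (GRCm38.p6) are printed 5′ to 3′ on the gene's strand. They are shown because each gene was higher in members than in other endothelial cells. Capitals mark the motif CACCC, the core of sites read by Kruppel-like factors (Klf2, Klf4), searched on both strands, so that GGGTG marks a match on the other strand. S100a6 lies at chr3:90612644-90612893 on the plus strand, S100a4 at chr3:90603520-90603769 on the plus strand, Npnt at chr3:132950292-132950541 on the minus strand and P2ry2 at chr7:101012054-101012303 on the minus strand.
S100a6: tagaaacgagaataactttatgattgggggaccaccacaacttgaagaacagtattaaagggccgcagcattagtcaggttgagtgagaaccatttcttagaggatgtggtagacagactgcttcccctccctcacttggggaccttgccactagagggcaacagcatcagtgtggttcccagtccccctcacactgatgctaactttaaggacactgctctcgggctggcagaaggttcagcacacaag
S100a4: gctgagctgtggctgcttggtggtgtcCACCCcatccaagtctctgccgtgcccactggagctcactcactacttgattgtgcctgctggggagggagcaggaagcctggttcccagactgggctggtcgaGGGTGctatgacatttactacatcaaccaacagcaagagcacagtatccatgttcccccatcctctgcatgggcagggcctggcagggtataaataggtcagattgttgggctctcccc
Npnt: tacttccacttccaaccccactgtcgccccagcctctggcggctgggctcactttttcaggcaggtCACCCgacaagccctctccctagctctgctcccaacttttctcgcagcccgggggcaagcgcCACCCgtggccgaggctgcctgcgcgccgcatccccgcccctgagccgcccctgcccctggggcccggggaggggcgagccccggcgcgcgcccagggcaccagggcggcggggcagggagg
P2ry2: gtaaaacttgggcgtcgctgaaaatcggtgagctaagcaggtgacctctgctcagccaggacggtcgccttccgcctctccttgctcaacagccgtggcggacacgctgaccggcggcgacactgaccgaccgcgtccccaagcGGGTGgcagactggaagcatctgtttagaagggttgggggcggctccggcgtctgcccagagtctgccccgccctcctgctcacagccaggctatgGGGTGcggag
CACCC was in 10 of the 12 leading genes that had a window, against 51.3% of all 27025 windows of 250 bases. The AP-1 motif TGANTCA was in 0 of the 12, against 6.87% of all windows, and the ETS motif CCGGAAG in 1 of the 12, against 7.05%. None of these motifs contains another. For each gene 1 window was searched, and base composition was not taken into account. A match is a run of letters only, and no match says nothing about a factor.

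Against other endothelial cells, which met the same exclusions but had at most 2 gate genes, members had high levels of S100a6, Npnt, P2ry2, Col18a1 and Nos1, and low levels of capillary and venous genes. UMIs were summed per library and class and tested with edgeR's quasi-likelihood test with the library as a term, over 6 libraries, since 3-month replicate 1 held only 19 members. Of 9946 genes tested, 739 were higher (7.43%) and 653 lower (6.57%) at an adjusted p under 0.05, so 14% in either direction, the classes did not overlap for 3.73% of genes, and the median log2 difference of all genes was -0.02. The gate genes were picked from these same cells, so genes that vary with them had to differ, and these calls describe the gated cells rather than give independent evidence that they form a type.

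S100a6, a calcium-binding protein, had the highest fold change. Its level in members was 1453, 687 and 997 CPM at 12 months (replicates 1, 2 and 3) and 183, 324 and 567 CPM at 3 months (replicates 2, 3 and 4), the order used for all values below. In other endothelial cells of the same libraries it was 115, 48.3, 45.5, 10.3, 11.9 and 10.2 CPM. Every member value lay above every value of the other cells, and the log2 fold change was 4.38 (SE 0.16, adjusted p = 5.12e-19 by edgeR). A UMI of S100a6 was found in 59.8% of members (median 4646 UMIs), 3.59% of other endothelial cells (2460 UMIs) and 3.12% of microglia-marked cells (2012.5 UMIs). With all cells thinned to 2000 UMIs these shares were 44.4%, 2.47% and 3.85%.

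P2ry2, a receptor for extracellular ATP and UTP, had 30.1, 58.3 and 65.9 CPM in members at 12 months and 36.3, 87.0 and 57.5 CPM at 3 months, against 4.81 to 5.74 CPM in the other cells (log2 fold change 3.43, SE 0.23, adjusted p = 3.17e-13 by edgeR). Its members and other cells did not overlap, and neither age stood apart. Npnt had 270, 50.0 and 216 CPM at 12 months and 70.3, 123 and 78.4 CPM at 3 months, against 4.28 to 12.7 CPM (log2 fold change 3.78, SE 0.19). Npnt varied most among the 12-month libraries, with replicate 2 the lowest of all 6. A UMI of Npnt was found in 28.3% of members, 2.06% of other endothelial cells and 7.08% of microglia-marked cells. With all cells thinned to 2000 UMIs these shares were 14.5%, 1.29% and 6.13%. Npnt was thus more frequent in microglia-marked cells than in other endothelial cells.

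Col18a1, whose product holds endostatin, had 291, 106 and 174 CPM at 12 months and 45.4, 81.5 and 60.1 CPM at 3 months, against 5.74 to 22.4 CPM (log2 fold change 3.17, SE 0.18). Nos1, the neuronal nitric oxide synthase, had 190, 66.6 and 94.1 CPM at 12 months and 14.7, 18.1 and 31.4 CPM at 3 months, against 1.21 to 23.2 CPM (log2 fold change 3.06, SE 0.26). The Nos1 ranges overlapped, and members were above the other cells within each of the 6 libraries. S100a4, a neighbour of S100a6 on chromosome 3, had a log2 fold change of 3.03 (SE 0.37), with 12.5 to 174 CPM against 0.610 to 8.76 CPM. The other genes among the 14 highest were the calcium pump Atp2a3, the TGF-beta docking receptor Lrrc32, the guanine deaminase Gda, the estrogen receptor Gper1, Ccdc184, Kazald1, the microtubule regulator Stmn2 and the tetraspanin Tspan2, with log2 fold changes of 2.45 to 2.81. Of 7 genes of the S100 family tested, a family looked up after these values were seen, 5 were higher and none lower: S100a6, S100a4, S100a10 (1.81), S100a11 (1.30) and S100a16 (0.42), while S100a1 (-0.09) and S100a13 (0.08) did not pass.

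Among the lowest log2 fold changes were the capillary markers Car4 and Slc16a1 and the venous marker Slc38a5. Slc38a5, a glutamine transporter, had 0, 18.7 and 18.8 CPM in members at 12 months and 29.5, 27.2 and 15.7 CPM at 3 months, against 148 to 221 CPM (log2 fold change -2.99, SE 0.16). Car4, a carbonic anhydrase of the capillary surface, had 20.0 to 176 CPM against 473 to 819 CPM (-2.52, SE 0.13). Slc16a1, a lactate transporter, had 10.0 to 159 CPM against 137 to 879 CPM (-2.48, SE 0.13), and its ranges overlapped. Ndnf, Flrt2, Fmo2, Rnase4, Ctsc, Ttyh2 and Tmsb10 completed the 10 lowest, at -2.92 to -2.20.

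**Figure D1:**
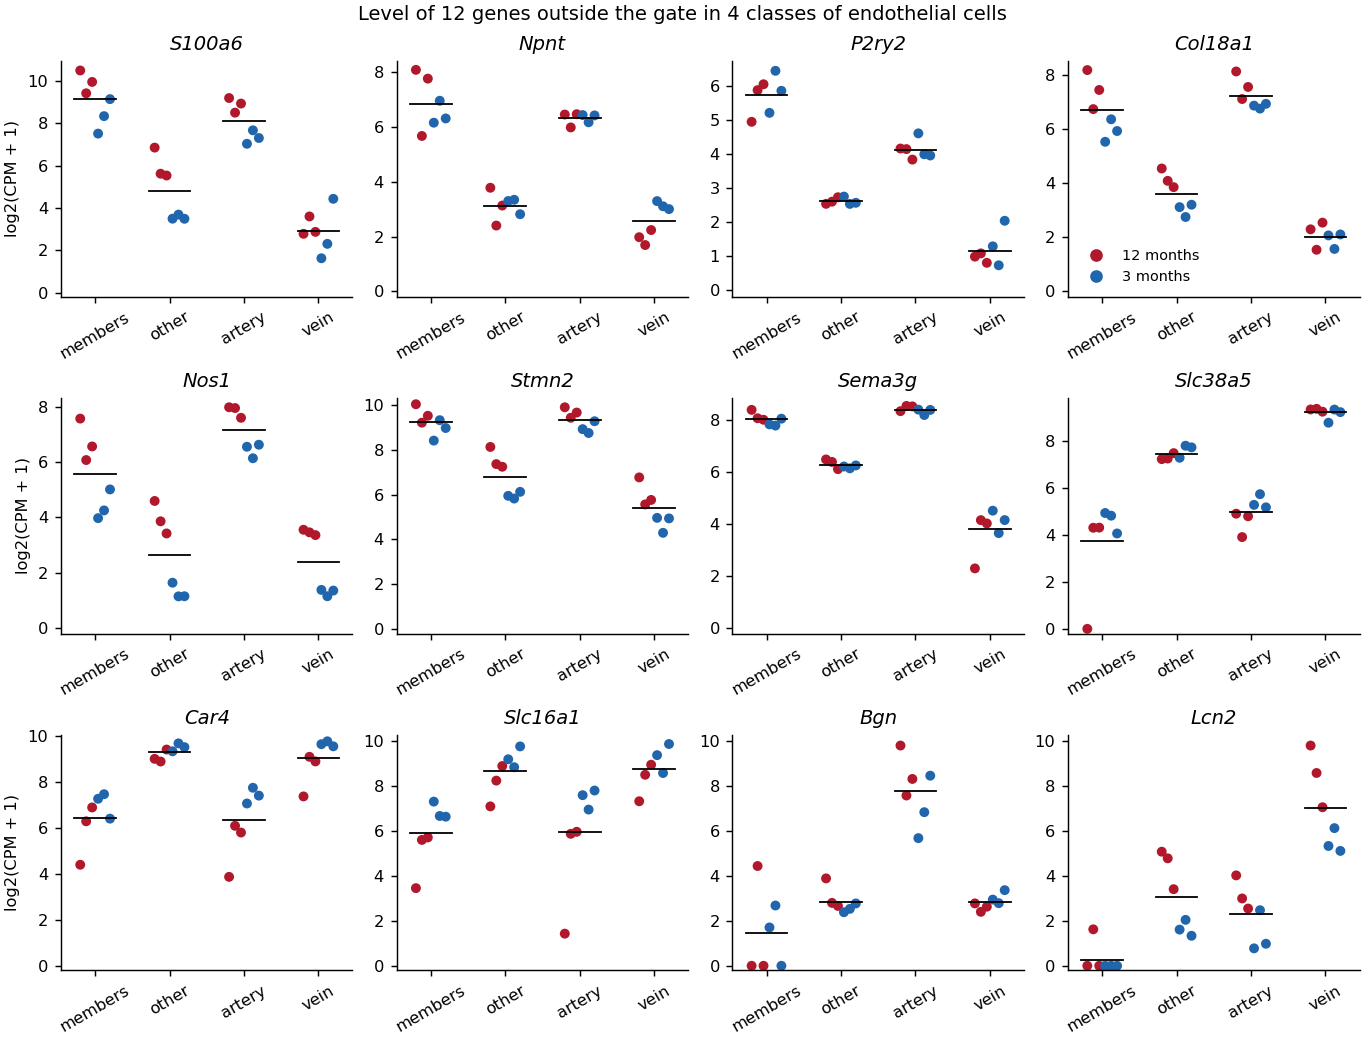
Level of 12 genes outside the gate, as log2(CPM + 1), in members, other endothelial cells, artery-gated and vein-gated cells. Each point is the sum over 1 of 6 libraries (red 12 months, blue 3 months) and the line is the mean. S100a6, Npnt and P2ry2 are high in members and artery-gated cells, while Slc38a5 is high in vein-gated cells.

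Lists of genes were read by the number of members called. Of 9 arterial markers tested, 9 were higher and none lower (median log2 fold change 1.63 against -0.02 for all genes): the guidance cue Sema3g rose from 75.7 ± 7.83 to 259 ± 40.2 CPM (SD, n = 6), the kinase Bmx by 1.83, the lymphatic growth factor Vegfc by 1.95 and the connexin Gja4 by 1.63 on the log2 scale. Of 8 capillary markers, 7 were lower and none higher, including Car4, Slc16a1, the transferrin receptor Tfrc (-1.73) and the lipid transporter Mfsd2a (-1.16), while Rgcc did not pass (-0.15, SE 0.14). Of 7 venous markers, 6 were lower, including the venous transcription factor Nr2f2 (-1.91), and 1, the cholesterol hydroxylase Ch25h, was higher (1.31, SE 0.35), a call lost without 3-month replicate 4. Of 6 fenestrated markers, 5 were lower.

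Transport genes were mostly lower. Of 24 solute carriers of the barrier, 15 were lower and 2 higher, Slc6a6, the taurine transporter (0.60), and Slc9a3r2, a scaffold protein listed with them (0.70). The large neutral amino acid transporter Slc7a5 was at -1.04, its partner Slc3a2 at -0.88 and the organic anion transporter Slc22a8 at -1.80. The main glucose transporter Slc2a1 had 1437 ± 64.8 CPM in members and 1402 ± 184 CPM in other cells (SD, n = 6), a log2 difference of 0.02 (SE 0.09). Of 16 receptors and vesicle genes, 9 were lower and 3 higher: caveolin Cav1 (0.84), Cavin1 (0.31) and Cavin3 (0.74). Of 21 Wnt and barrier regulators, 7 were lower, among them the Wnt targets Apcdd1 (-1.24) and Nkd1 (-1.10) and the receptor Fzd4 (-0.81), and 1, Sox17, was higher (0.77). Of 11 VEGF and angiopoietin genes, 6 were lower, including the main VEGF receptor Kdr (-1.13), and 1 was higher. All 3 metallothioneins were lower.

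Stimulus-induced genes were higher. Of 20 immediate early genes, 15 were higher and 1 lower: Egr3 (2.29), Nr4a2 (2.21), Nr4a1 (1.68), Gadd45g (1.57), Fosl2 (1.25) and Fos (1.09) were among them, Ier3 was lower (-0.50), and Fosb, Jun, Ier5 and Btg1 did not pass. Egr3 was at 207 ± 43.3 CPM in members and 42.6 ± 8.53 CPM in other cells (SD, n = 6). Of 18 flow-linked genes, 5 were higher, among them the Kruppel-like factors Klf2 (0.50), Klf4 (0.61) and Klf6 (0.60), and 4 were lower, among them the mechanosensitive channel Piezo1 (-0.41) and the receptor subunit Ramp2 (-0.46). Of 14 Notch pathway genes, 4 were higher (the ligands Jag1, 0.88, and Jag2, 1.03, and Hey1, 1.24, among them) and 1, Mfng, was lower (-0.83). Of 11 cell cycle and growth arrest genes, 4 were higher, with the cyclins Ccnd1 (1.79) and Ccnd2 (1.73) and the inhibitor Cdkn1c (1.08), and 1, the inhibitor Cdkn1b, was lower (-0.44), while the proliferation markers Mki67 and Top2a were too low to be tested. Of 14 basement membrane genes, 5 were higher, with Col4a1 at 0.42 and Col4a2 at 0.36, and 1, Nid1, was lower (-0.69). Of 13 mitochondrially encoded genes, 11 were lower (median -0.33) and none higher, and of 17 junction genes 4 were lower.

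Relatives of the gate genes and signalling lists were mixed. Of 4 genes of the EMP and PMP22 family tested, Emp3 (2.06, SE 0.24) and the myelin protein Pmp22 (0.51) were higher and Emp2 lower (-0.67). Both CCN genes tested differed, Ccn1 upward (1.06, SE 0.10) and Ccn2 downward (-1.01, SE 0.23). Of 6 genes of the Ly6 and uPAR family, Ly6a (0.29) and Cd59a (0.38) were higher, Ly6a in 3 of 6 fits without 1 library. Of 20 TGF-beta and BMP genes, 5 were higher, with the ligand Tgfb2 at 1.07 and the latency protein Ltbp1 at 2.02, and 3 were lower, with the coreceptor Tgfbr3 at -1.06. Of 18 guidance genes, 6 were higher, with Ntn4 (1.01), Sema6d (1.01), the netrin receptor Unc5b (0.89) and the arterial ephrin Efnb2 (0.83), and 5 were lower, with Sema6a (-1.05) and the venous receptor Ephb4 (-0.41, called in 3 of 6 fits without 1 library). Unc5b had the opposite sign against cells with arterial markers. Efnb2 and Hey1 did too, but both are among the markers that chose those cells, so their sign there is no result. Of 11 ABC efflux transporters, 3 were lower, Abcg2 (-0.69), Abcb1a (-0.40) and Abcc4 (-0.36), and Abca1 was higher (0.49). Of 10 complement and acute-phase genes, 5 were lower, with the oncostatin M receptor Osmr at -1.04, and 2 were higher, with Socs3 at 0.60. Of 29 interferon genes, 4 were higher, led by Ifi27l2a (1.65), and 2 were lower. Of 14 heat shock genes, 4 were higher, with Hspa1a at 0.77, and the 1 pericyte marker tested, Rgs5, was higher (0.95, SE 0.26), in 4 of 6 libraries, with its call lost without 3-month replicate 3 or 4.

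**Figure D2:**
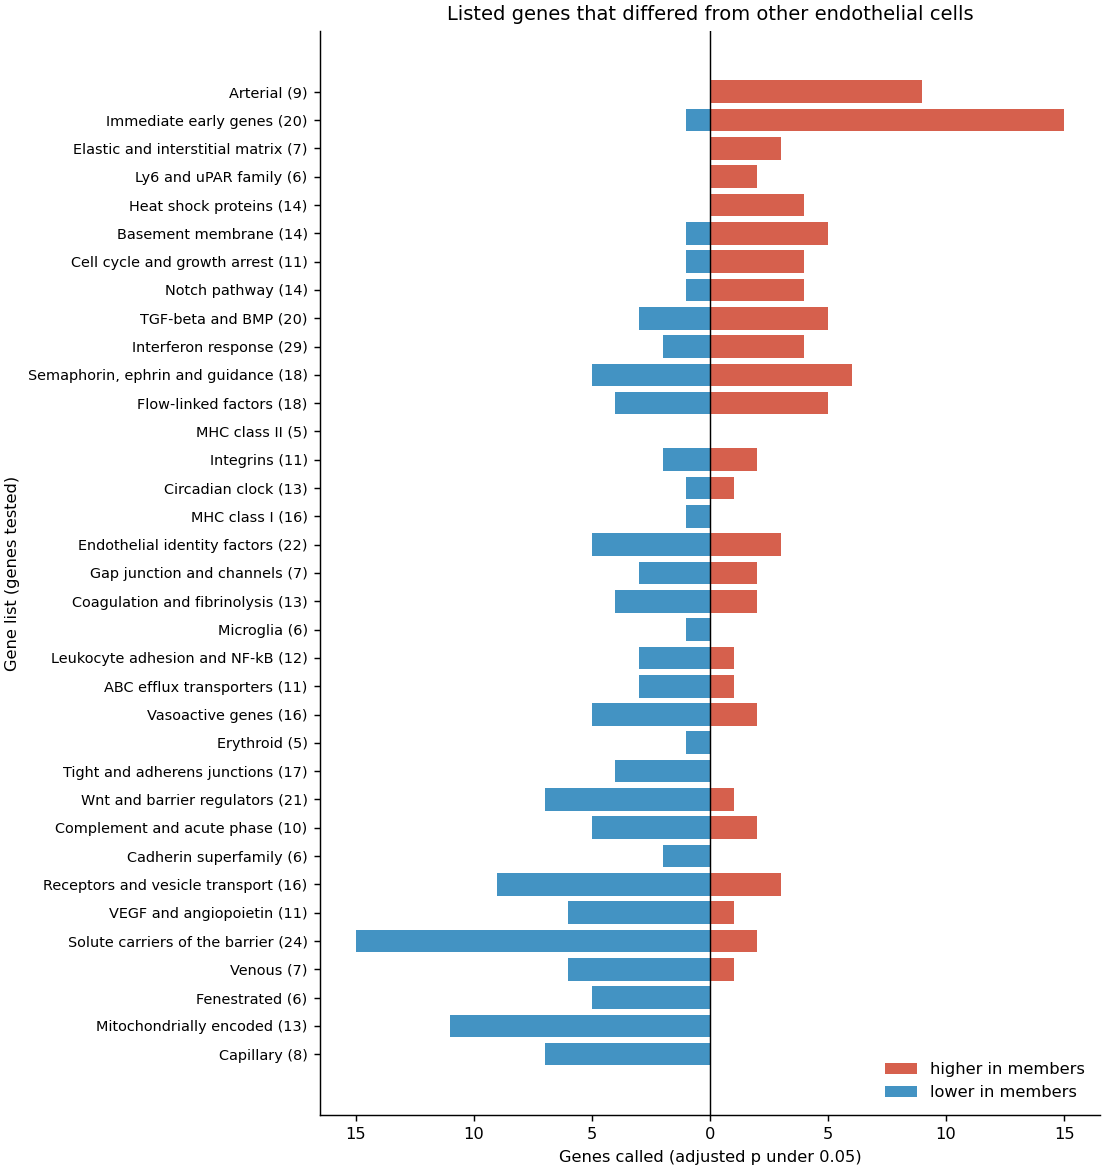
Number of genes of each list that were higher (right, red) or lower (left, blue) in members than in other endothelial cells at an adjusted p under 0.05, with the number tested in brackets. Arterial and immediate early genes lie to the right, and capillary, venous and solute carrier genes to the left.

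The leading genes also shifted with the number of gate genes in cells below the threshold. Mean S100a6 was 14.3, 108, 292, 547 and 974 CPM in cells with 0, 1, 2, 3 and at least 4 gate genes. Slc38a5 was 209, 56.3, 23.8, 24.8 and 9.61 CPM, and Car4 728, 325, 216, 115 and 94.7 CPM. Cells with 2 gate genes thus lay between members and the rest, and the threshold cut through a range. Cells were not thinned for these values.

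**Figure D3:**
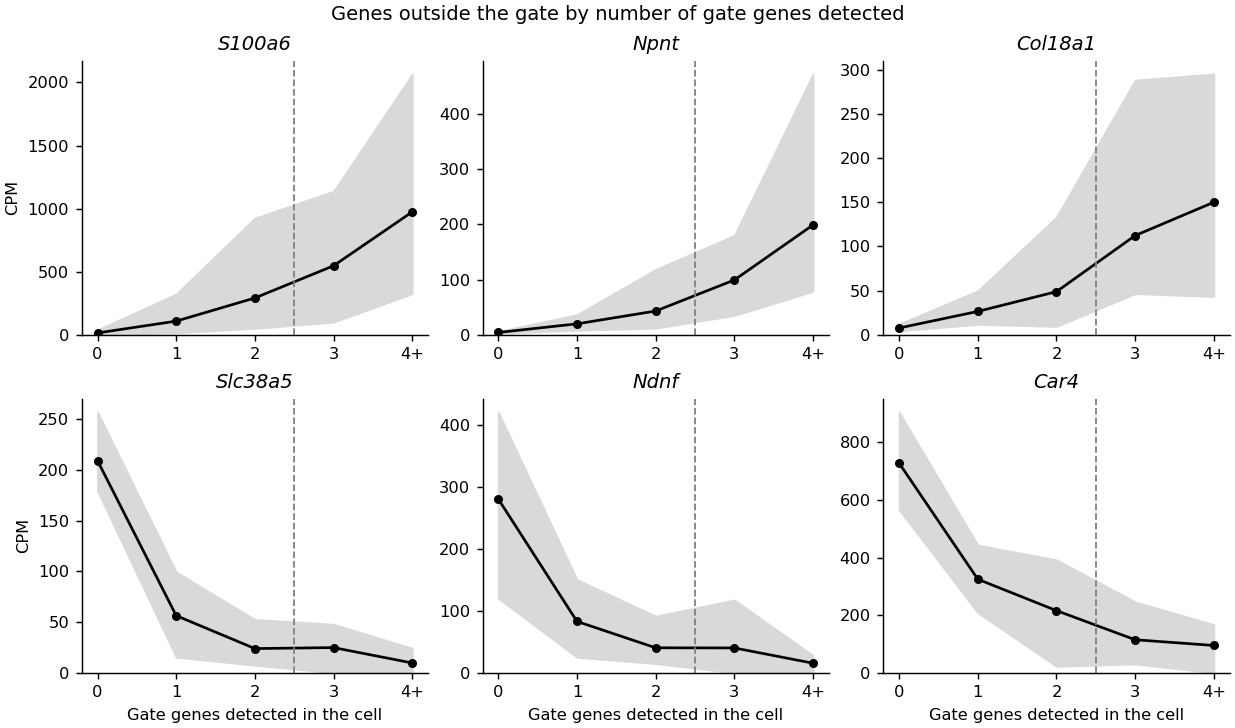
Level of 6 genes outside the gate in CPM (vertical axis, from 0) against the number of gate genes detected in the cell. The line is the mean and the grey band the range over 6 libraries, and the dashed line marks the gate. S100a6 climbs from 14.3 to 974 CPM and Slc38a5 falls from 209 to 9.61 CPM.

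At 2000 UMIs per cell, 12.9% of other endothelial cells and 51.2% of members carried at least 3 of the 10 arterial markers. Members were therefore also set against those other cells that carried at least 3 of them without thinning. This comparison was added after the values above were seen. Of 7512 genes tested by edgeR, 373 were higher (4.97%) and 313 lower (4.17%), 9.13% in all. All 14 leading higher and all 10 leading lower genes were called in the same direction, and of all genes called before, 347 of 662 tested higher genes and 261 of 541 tested lower genes were. The members were the same and the comparison cells were a part of the earlier ones. This agreement is therefore not independent evidence. S100a4 was at 3.49 (SE 0.31), S100a6 at 3.48 (SE 0.19), Npnt at 2.62 (SE 0.15) and P2ry2 at 2.48 (SE 0.20). Egr3 was at 1.68 and Nr4a2 at 1.59, and 17 of 20 immediate early genes were higher. Capillary markers were again lower for 7 of 8 and solute carriers for 15 of 24. Arterial markers chose these cells, so they give no result here.

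Against artery-gated cells, which had at least 2 of the 4 artery genes, members had lower levels of 6 of 10 arterial markers and of 4 of 6 elastic and interstitial matrix genes, and no gene of either list was higher. The 4 artery genes set these classes apart, so genes that vary with them had to differ. Of 13 basement membrane genes, 4 were higher and 2 lower. Transport genes went the other way than against other endothelial cells. Of 23 solute carriers, 6 were higher and 1 lower, and of 8 capillary markers, 3 were higher and 1 lower. Metallothioneins were higher for 2 of 2 tested, and immediate early genes for 10 of 20, with none lower. Of 7472 genes tested by edgeR, 308 were higher (4.12%) and 331 lower (4.43%), 8.55% in all. Bmp4, a ligand of the TGF-beta family, had 0 of 2609197 member UMIs and 412 of 6806782 artery UMIs, so it was at least 52.6-fold higher in artery-gated cells, taking the 3 UMIs that a count of 0 allows over the group. The proteoglycan Bgn was 42.9-fold higher there (95% interval 25.9 to 76.8, counting error only), with 15 UMIs in members, and 111-fold higher without 12-month replicate 2, with 5 UMIs. Fblim1, Igfbp4 and Cd63 were also lower in members, at log2 fold changes of -4.46, -3.62 and -3.42. Without 3-month replicate 2 the UMI ratio rose from 29.1 to 55.6 for Fblim1 and from 12.0 to 27.5 for Cd63. Summed fibroblast markers came to 21.5 to 432 CPM in artery-gated cells and 0 to 6.25 CPM in members. Choroid plexus markers came to 0.974 to 201 CPM and 0 to 7.94 CPM, and fenestrated markers to 317 to 2710 CPM and 192 to 1199 CPM. The part of such RNA in the genes lower in members was not tested. Ccdc184 (1.98), P2ry2 (1.72), the mitochondrial carbonic anhydrase Car5a (1.51), Apold1 (1.46), Lrrn3 (1.42) and Trib1 (1.42) were higher. P2ry2 was at 55.8 ± 20.6 CPM in members and 16.7 ± 3.61 CPM in artery-gated cells (SD, n = 6). S100a6 was higher by 1.02 (SE 0.12), while Npnt (0.43, SE 0.18, adjusted p = 0.174) and Stmn2 (-0.09, SE 0.11, adjusted p = 0.738) did not pass. Nos1 (-1.64), Bmx (-1.10), Vegfc (-0.96) and Gja4 (-1.41) were lower in members than in artery-gated cells. S100a4 and Col18a1 were not particular to members. With cells thinned to 2000 UMIs, S100a4 had a UMI in 6.58% of members and 7.16% of artery-gated cells. For Col18a1 these shares were 17.3% and 24.4%.

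Against vein-gated cells, which had at least 3 of the 5 vein genes, 979 of 8217 genes were higher (11.9%) and 961 lower (11.7%) by edgeR, 23.6% in all. S100a6 was at 702 ± 465 CPM in members and 8.33 ± 6.75 CPM in vein-gated cells (SD, n = 6; log2 fold change 6.06, SE 0.19). P2ry2 (5.45), Col18a1 (4.98), S100a4 (4.92), Gprc5b (4.77) and the collagen Col14a1 (4.59) were the next highest. Adgrg6, an adhesion receptor, had 0 UMIs in members and 3321 in vein-gated cells, at least 90.2-fold higher there. Lcn2, an acute-phase protein, had 1 UMI in members against 4839 (ratio 394, 95% interval 70.7 to 15574), and Col6a6 had 1 against 1491 (ratio 121, 21.8 to 4801). The chemokine Cxcl10, cyclooxygenase Ptgs2 and the coagulation factor F5 were lower in members by 5.70, 4.95 and 4.79 on the log2 scale. Of 20 immediate early genes, only 7 were higher and 2 lower than in vein-gated cells (median log2 fold change 0.03 against -0.01 for all genes).

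Age was not used by the gate. Members were 1.60%, 2.08% and 0.888% of endothelial cells at 12 months and 0.535%, 2.13%, 1.14% and 1.37% at 3 months. The means were 1.52% ± 0.601 (SD, n = 3) and 1.29% ± 0.661 (SD, n = 4), and the ages overlapped (difference 0.230 percentage points, p = 0.686, two-sided exact permutation test over 35 splits). Depth per cell differed with age, so cells were thinned to 2000 UMIs before gating. The shares were then 1.64%, 1.45% and 1.26% at 12 months and 0.241%, 0.373%, 0.331% and 0.350% at 3 months, which did not overlap (difference 1.12 percentage points, exact permutation p = 0.0286, the smallest that 35 splits allow). At 1000 UMIs the 12-month shares were 1.60%, 0.613% and 0.227%, and the difference was 0.702 percentage points (exact permutation p = 0.0286), or 0.308 without 12-month replicate 1. Thinning to 2000 UMIs left out 4460, 1620 and 5427 barcodes at 12 months and 310 to 747 at 3 months, so the loss differed with age. The 1.64% of 12-month replicate 1 at 2000 UMIs rested on 10 members among 609 endothelial cells. The gate genes that decide membership were themselves higher per UMI at 12 months in the cells passing the exclusions, at 126 to 309 CPM against 64.8 to 87.7 CPM, so this share is a measure of those genes.

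**Figure D4:**
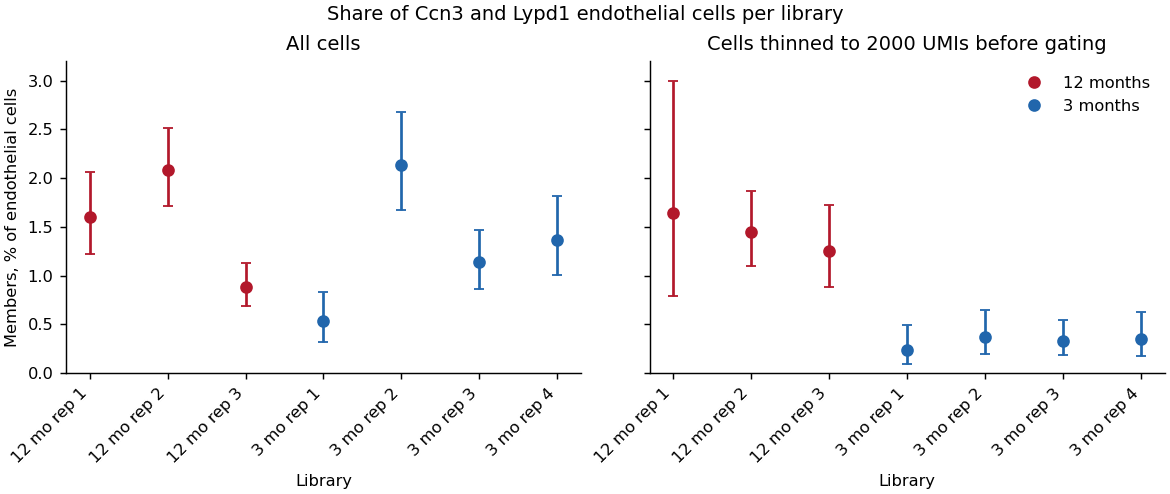
Members as a percent of endothelial cells in each of 7 libraries (red 12 months, blue 3 months), for all cells and for cells thinned to 2000 UMIs before gating. Bars are 95% exact binomial intervals and cover counting error only. The ages overlap on the left and not on the right.

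Between the ages, members at 12 months had more RNA of immediate early genes and of several of the leading genes, and less of the transporters Slc7a5 and Slc16a1. Over 3 libraries each, 6091 genes were tested by edgeR, of which 50 were higher at 12 months (0.821%) and 15 lower (0.246%), 1.07% in all. The ages did not overlap for 16.6% of genes. Age cannot be told apart from the counting software and the indexing, which changed with it, or from depth, with a median of 1463 to 4094 UMIs per member at 12 months and 6396 to 10481 in the 3-month libraries tested. Gate genes summed to 1468 to 3296 CPM in members at 12 months and 663 to 1268 CPM in the 3-month members tested, and the part of this in the results was not tested.

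Of 20 immediate early genes, 11 were higher at 12 months and none lower. Of the 11, Atf3, Fos, Fosb and Jun kept their call in each of the 6 fits that left out 1 library, Egr1, Junb, Gadd45b and Gadd45g in 3, Jund and Ier3 in 2 and Ier5 in 1. Atf3, a stress-induced factor, had 1944, 612 and 1232 CPM at 12 months and 113, 208 and 131 CPM at 3 months (log2 fold change 3.10, SE 0.31, adjusted p = 8.23e-07 by edgeR). Fos had 6512, 4497 and 6336 CPM against 1397, 2323 and 1724 CPM (1.75, SE 0.24), and Jun was higher by 1.44 (SE 0.24). Socs3, a feedback inhibitor of cytokine signalling, had 351, 231 and 226 CPM against 59.0, 59.8 and 49.6 CPM (2.25, SE 0.22, adjusted p = 8.23e-07). The ages did not overlap for any of these. Egr3 (-0.19), Nr4a1 (0.21), Nr4a2 (0.01) and Fosl2 (0.01), which separated members from other cells, did not pass between the ages.

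Of the 14 genes leading against other endothelial cells, 6 were higher at 12 months, S100a6 (1.63, SE 0.29), Col18a1 (1.51), Nos1 (2.37), S100a4 (2.22), Gda (1.62) and Ccdc184 (1.67), and none lower. Each of these 6 calls but that of Nos1 was lost in some of the 6 fits that left out 1 library: S100a6 kept its call in 5 fits, Col18a1 in 4, S100a4 and Gda in 3 and Ccdc184 in 1. All 6 genes also had higher CPM at 12 months in the other endothelial cells of the same libraries, without overlap of the ages. Nos1 had 9.72 to 23.2 CPM against 1.21 to 2.12 CPM there, and S100a6 45.5 to 115 CPM against 10.2 to 11.9 CPM. Of 9 arterial markers tested in members, Gkn3 (1.44, SE 0.22) and Sox17 (0.89, SE 0.21) were higher, Gkn3 in 6 of 6 fits without 1 library and Sox17 in 1. Clu, the chaperone clusterin, was at 2.52 (SE 0.30), with 198 to 681 CPM against 57.5 to 96.0 CPM. Smad7 (1.26), Phlda3 (2.15), Laptm5 (1.93) and Nfkbiz (1.69) were also higher.

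Of 8 capillary markers, 2 were lower at 12 months. Slc7a5 had 170, 133 and 84.7 CPM against 494, 295 and 222 CPM (-1.37, SE 0.28, adjusted p = 0.0118 by edgeR), and Slc16a1 was at -1.40 (SE 0.32). Slc7a5 kept its call in 4 and Slc16a1 in 2 of the 6 fits that left out 1 library, and 2 of 21 solute carriers tested were lower. The clock output gene Dbp was at -2.25 (SE 0.49), with 10.0 to 14.6 CPM against 47.6 to 121 CPM and its call kept in 3 of 6 such fits, and the clock repressor Bhlhe40 at 1.30 (SE 0.20). The fenestrated markers Plvap (-3.77, SE 0.77), Igfbp3 (-2.85, SE 0.53) and Plpp3 (-2.11, SE 0.42) were lowest, but 8 of the 428 members carried at least 4 of the 6 fenestrated markers, 7 of them at 3 months, and held 244 of the 250 Plvap UMIs of all members. Without those 8 cells, a step added after seeing them, 62 genes were called, 58 of them the same, and Plpp3 stood at 0.25.

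**Figure D5:**
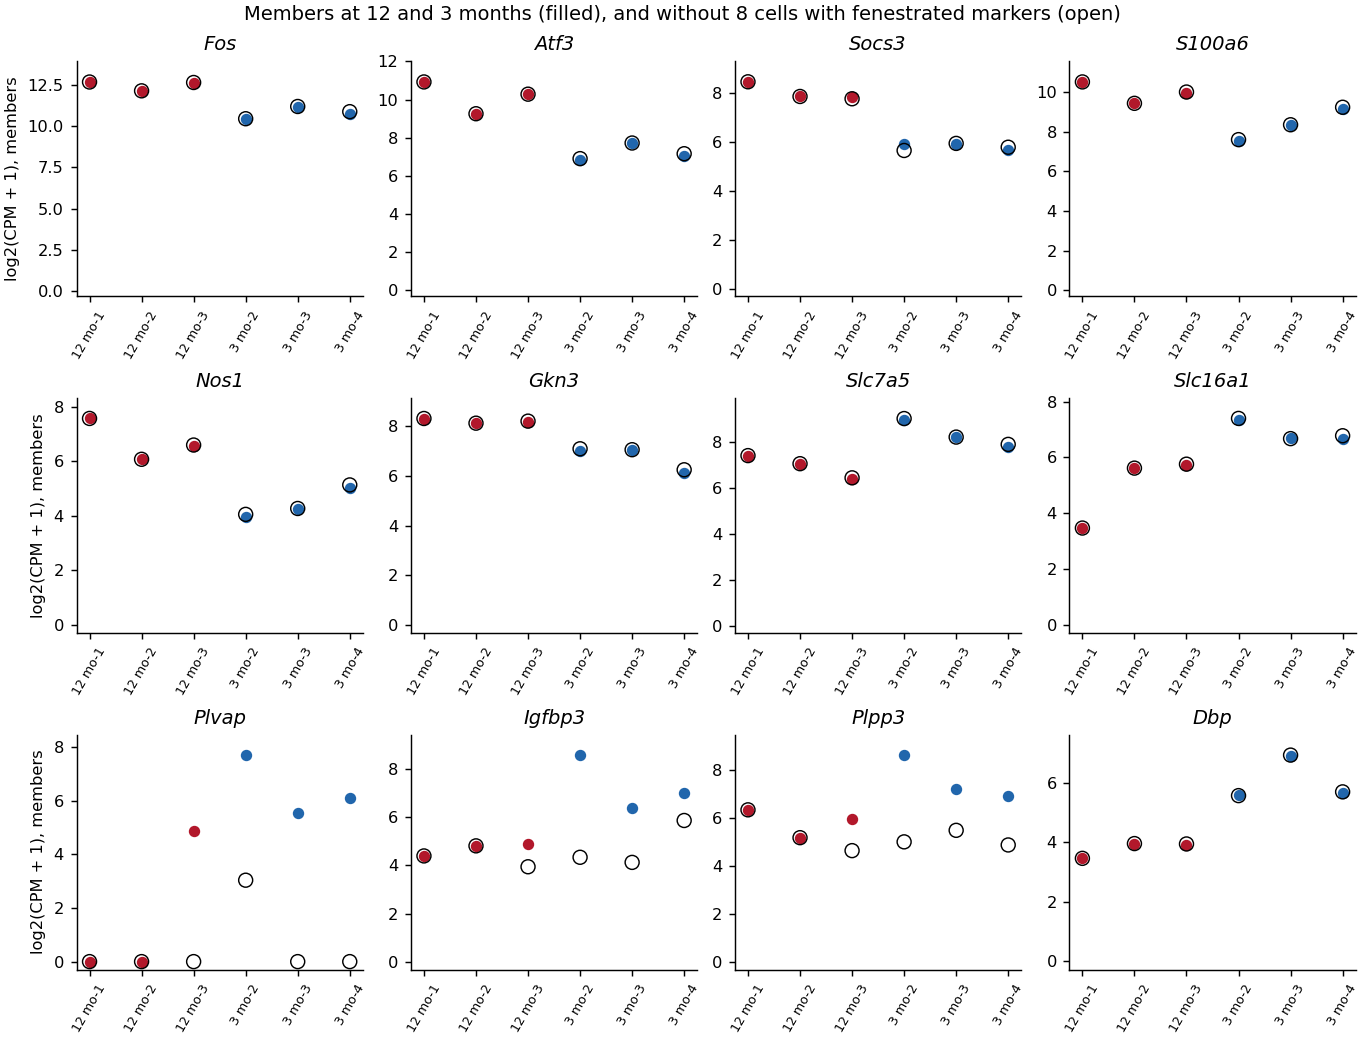
Level of 12 genes in members as log2(CPM + 1) in 3 libraries at 12 months (red) and 3 at 3 months (blue). Open circles show the same without 8 cells that carry fenestrated markers. Fos, Atf3 and Socs3 are higher at 12 months in both, while Plvap, Igfbp3 and Plpp3 drop in each 3-month library without those cells.

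The age difference was compared with that of the other endothelial cells of the same libraries. Of 10587 genes tested for a class by age term by edgeR, 5 passed (0.0472%), 2 with a higher (0.0189%) and 3 with a lower (0.0283%) age difference in members. Of the leading 14 genes, only Stmn2 did. S100a6 had an interaction of -0.99 (SE 0.23, adjusted p = 0.0816), and Fos -0.50 (SE 0.19, adjusted p = 0.622), so a larger or smaller age difference in members was not shown for them. In the other endothelial cells Fos had 2489 to 3815 CPM at 12 months and 675 to 760 CPM at 3 months, and Atf3 398 to 1303 CPM and 54.8 to 72.3 CPM, without overlap of the ages. Both classes come from the same libraries.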

How the data were processed

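The authors deposited unnormalised UMI counts for each gene in each barcode of 7 droplet libraries (10x Genomics), made with Cell Ranger 4.0.0 at 12 months and 6.1.1 at 3 months per the file headers, and with build mm10 per the submitters' processing notes. Cell calling settings and the use of intronic reads were not stated in those sources. The files list 32285 genes, and every library has its own count matrix.

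Cells were gated as described in the report. Members and gene lists were chosen with earlier results of these data known. UMIs were summed per library and class and given as CPM, scaled to all UMIs in the sum. A library entered a fit with at least 20 cells in the class, which left out 3-month replicate 1 for members. Genes passing edgeR's filterByExpr were tested with edgeR 4.0.16 (R 4.3.3), using TMM scaling, the quasi-likelihood test and Benjamini-Hochberg adjustment over all genes tested at 0.05. Class contrasts had library as a term, age contrasts had age alone, and class by age was an interaction term. Gate genes were not tested. Shares were compared with two-sided exact permutation tests (scipy 1.17.1). Doublets were kept, and scrublet scores (scanpy 1.11.5) served an alternative that removed the highest scores, 0.8% per 1000 barcodes. Intervals are exact binomial or Poisson at 95% and cover counting error only.

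Genes named against other endothelial cells were the 14 highest and 10 lowest log2 fold changes among genes called with the same direction in every library and at least 50 CPM in the higher class. The 6 highest and 6 lowest were named against artery-gated and vein-gated cells, and the 10 highest and 10 lowest between ages. Genes of each list with the smallest p were added, and other named genes were picked after their values were seen. Predicted, mitochondrial, ribosomal and sex-linked genes were not named by rank, and some genes that the rule names are not reported here. Scripts were tested on simulated data. Alternatives included DESeq2 1.42.0, other filters on cells and genes, thinned sums, a replicate block and leaving out each library.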

Additional observations from a re-analysis of the deposited data

Results flagged for a closer look

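For 5 genes, the difference between 12 and 3 months in members differed from that in other endothelial cells of the same libraries by edgeR's interaction term. Values are in CPM.

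Clu, the chaperone clusterin, had 681, 198 and 414 CPM in members at 12 months and 57.8, 96.0 and 57.5 CPM at 3 months, against 155, 56.3 and 47.1 CPM and 23.9, 52.6 and 31.0 CPM in other cells. The interaction was 1.25 on the log2 scale (SE 0.24, adjusted p = 0.0208 by edgeR, range over 9 alternatives 1.33e-07 to 0.924). Hbegf, a growth factor of the EGF family, had 362 to 621 CPM at 12 months and 183 to 225 CPM at 3 months in members, and 143 to 146 CPM and 109 to 139 CPM in other cells, an interaction of 0.90 (adjusted p = 0.021 by edgeR, range 3.97e-06 to 0.191). For both genes the ages were farther apart in members.

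Stmn2, a microtubule regulator, had 589 to 1042 CPM at 12 months and 338 to 636 CPM at 3 months in members, and 150 to 278 CPM and 55.5 to 68.5 CPM in other cells, an interaction of -1.02 (adjusted p = 0.00731 by edgeR, range 7.51e-12 to 0.192). Depp1 had 311 to 461 CPM and 115 to 408 CPM in members, and 138 to 150 CPM and 34.1 to 83.9 CPM in other cells, an interaction of -0.98 (adjusted p = 0.0237 by edgeR, range 9.30e-09 to 0.692). For Stmn2 and Depp1 the ages overlapped in members and not in other cells. Cxcl12, a chemokine of arterial endothelium, had 1873 to 2533 CPM and 2626 to 4071 CPM in members, and 2963 to 4099 CPM and 2488 to 3365 CPM in other cells, an interaction of -0.96 (adjusted p = 0.00413 by edgeR, range 1.69e-06 to 0.0798). None of the 5 passed in every fit that left out 1 library.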

How the results depend on the processing

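The difference in the share of members stood at 1.12 and 0.702 percentage points with cells thinned to 2000 and 1000 UMIs. Leaving out 1 library then gave 1.03 to 1.22 at 2000 UMIs and 0.308 to 0.996 at 1000 UMIs, without overlap of the ages. Without thinning the difference was 0.230, and leaving out 1 library gave -0.0499 to 0.547. It was -0.0499 without 12-month replicate 2 and -0.0234 without 3-month replicate 1. With at least 1000 genes per cell it was 0.927 (exact permutation p = 0.143). Against other endothelial cells 1392 genes were called, and other settings called 865 with at least 4 gate genes (724 of them shared), 686 against cells with arterial markers (611 shared), 293 with thinned sums (282 shared), and 1130 to 1512 without 1 library. Against artery-gated cells, 639 became 252, 135 and 490 to 642 under the same gate, thinning and left-out libraries, and against vein-gated cells 1940 became 1280, 509 and 1673 to 2164. Thinned sums hold fewer UMIs and tighter gates fewer cells. Between ages, 65 became 21 with at least 4 gate genes, 162 with no filter beyond 1 count, 11 with thinned sums and 23 with 3-month replicate 1 added. It was 35 to 73 without 1 library, the lowest without 12-month replicate 3, and 42 without 3-month replicate 2. The cause was not tested. The labels do not say whether replicate numbers pair the libraries. Correlations of deviations at equal numbers were 0.09, 0.32 and 0.18 in members, against -0.21 to 0.17 at unequal numbers. In other endothelial cells they were 0.04, 0.29 and -0.05, against -0.25 to 0.20. These values do not settle the pairing. The replicate block gave 169 calls and a share difference of 0.254.

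The class by age count of 5 became 1 at 50 CPM in 3 libraries, 1 with other cells matched in UMIs, 23 without the 8 cells carrying fenestrated markers, and 0 to 51 without 1 library. The count of 0 by edgeR was without 3-month replicate 4, where 610 of 10888 genes had an unadjusted p under 0.05. DESeq2 was not run on the interaction. Edn1 (-0.14) and Unc5b (-0.14) reversed against cells with arterial markers, Edn1 (-0.26) with at least 4 gate genes, and Plpp3 (0.25) between ages without those 8 cells. Hey1 (-0.22) and Efnb2 (-0.35) also reversed against cells with arterial markers. Both are among the markers that chose that comparison group, so their reversal is no result. With no filter on low counts, 42.1% of calls against other cells were higher, against 53.1% before, and 34.2% against 48.2% for artery-gated cells. Of 32 named age genes, 13 were called in each fit without 1 library, among them Atf3, Bhlhe40, Clu, Fos, Fosb, Gkn3, Jun, Nfkbiz, Nos1, Phlda3, Smad7 and Socs3. S100a6 was not rank-named between ages and is not in that count.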

Other observations

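Members carried a median of 3 of the 10 arterial markers at 2000 UMIs per cell, against 1 in other endothelial cells, 4 in artery-gated cells and 1 in vein-gated cells. At least 3 markers were found in 51.2% of members, 12.9% of other cells, 77.9% of artery-gated cells and 3.75% of vein-gated cells. The 8 members with at least 4 fenestrated markers had 89.7 CPM of the glucose transporter Slc2a1, against 1423 CPM in the remaining members.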
